A study of Mus musculus with 8 samples.

Results

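The translation initiation factors measured here are the products of the Eif genes, read from 8 microarrays of mouse spleen T cells. Members were the genes whose probe sets list a single symbol beginning with Eif and a digit from 1 to 6. Eif2s3x and Eif2s3y, which lie on the sex chromosomes, were left out. Where a gene had several probe sets, the one whose log2 signal averaged highest over the 8 arrays stood for it. This gave 40 genes of the 12393 with 1 symbol, covered by 99 probe sets of 22690. All 40 were above the floor for low signals (141.88) on all 8 arrays. Values in 5 further probe sets that list an Eif symbol together with other genes were not used.

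The mice under study are labelled as lacking Gfi1, which encodes a zinc finger repressor, and their controls as wild type, both on the C57Bl/6 background. Pan-T cells were enriched magnetically from spleen and kept for 0, 4, 8 or 24 h with antibodies against CD3 and CD28, each genotype and time having 1 array. The antibody concentration was 2 µg/ml, and the 0 h cells were untreated. The titles carry 1 source number for all arrays of a genotype, so no replicate checks a difference between genotypes, and such differences are given by size alone. No array holds cells cultured without the antibodies, so what the antibodies did and what culture did cannot be told apart.

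Gfi1 itself gave 2316, 5979, 6459 and 9885 on the knockout-labelled arrays at 0, 4, 8 and 24 h, against 882, 6359, 5259 and 3966 on the wild-type-labelled arrays. The labels do not say whether the deletion covers this probe set, and the arrays are therefore called by their labels. Of the 14 T cell markers listed, 12 were tested, none was at the floor throughout, and their summed signal was 25324 to 61949 on the knockout-labelled arrays, against 66664 to 92529 on the wild-type-labelled arrays. All 12 granulocyte precursor markers were tested, and none was at the floor throughout. Their sum was 6372 to 169629 on the knockout-labelled arrays, against 967 to 15587 on the wild-type-labelled arrays. At 0 h, 9 of the 12 were 2-fold higher on the knockout-labelled array, while Ltf, Camp and Ngp were lower there. The 10 monocyte and macrophage markers, none at the floor throughout, summed to 14993 to 57047 on the knockout-labelled arrays, against 1156 to 8374 on the wild-type-labelled arrays. At 0 h, 6 of the 10 were 2-fold higher on the knockout-labelled array and 0 were 2-fold lower. The 5 tested B cell markers summed to 708 to 3942 on the knockout-labelled arrays, against 951 to 5097 on the wild-type-labelled arrays. Of the red cell markers, 2 were tested, and Alas2 and Epb42 were at the floor on all arrays. In whole samples of this kind, fewer cells of a type and less RNA per cell cannot be told apart.

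Initiation is the step at which a ribosome is brought to an mRNA and placed on its start codon. The eIF4F complex binds the 5′ cap and unwinds the leader, eIF3 holds the small subunit to it, eIF2 brings the initiator tRNA, and eIF5B joins the large subunit. Kinases that phosphorylate eIF2 lower initiation in stress, by blocking its recharging by eIF2B, and eIF4E-binding proteins block eIF4F until mTORC1 phosphorylates them. A resting T cell makes little protein, and stimulation through its receptor raises protein synthesis before the cell divides.

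Promoters of 4 genes are shown, because the genes either had the largest changes at 8 h among the subunits of eIF2 and eIF3 or hold the E-box CACGTG, the letters bound by Myc and related factors. Each sequence is the 250 bases before a start of the gene in RefSeq (GRCm38.p6), read 5′ to 3′ on the strand of the gene. Any E-box is in capitals. The windows are chr7:126566367-126566616 on the minus strand for Eif3c, chr2:154892907-154893156 on the minus strand for Eif2s2, chr3:138527018-138527267 on the plus strand for Eif4e, and chr11:69672424-69672673 on the minus strand for Eif4a1.
Eif3c: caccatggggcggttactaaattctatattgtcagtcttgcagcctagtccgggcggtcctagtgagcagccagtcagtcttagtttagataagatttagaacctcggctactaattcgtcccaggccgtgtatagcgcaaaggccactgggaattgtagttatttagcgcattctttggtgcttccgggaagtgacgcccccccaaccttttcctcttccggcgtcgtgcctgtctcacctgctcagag
Eif2s2: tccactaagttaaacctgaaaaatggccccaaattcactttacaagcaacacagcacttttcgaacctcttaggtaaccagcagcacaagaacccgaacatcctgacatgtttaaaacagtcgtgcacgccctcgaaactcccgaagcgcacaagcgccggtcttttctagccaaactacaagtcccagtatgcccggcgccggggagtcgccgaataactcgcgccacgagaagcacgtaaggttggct
Eif4e: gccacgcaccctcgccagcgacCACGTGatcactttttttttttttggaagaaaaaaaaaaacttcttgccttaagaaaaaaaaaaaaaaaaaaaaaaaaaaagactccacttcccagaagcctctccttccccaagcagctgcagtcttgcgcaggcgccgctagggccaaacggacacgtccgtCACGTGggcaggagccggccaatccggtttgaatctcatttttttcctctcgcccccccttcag
Eif4a1: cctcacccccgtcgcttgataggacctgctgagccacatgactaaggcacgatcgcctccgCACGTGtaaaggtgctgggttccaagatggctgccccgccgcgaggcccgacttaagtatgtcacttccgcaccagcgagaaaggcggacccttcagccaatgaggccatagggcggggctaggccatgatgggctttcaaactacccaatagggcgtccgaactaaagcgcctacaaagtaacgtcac
The Eif4e window holds 2 E-boxes, whose first bases lie 228 and 64 bases before the start. The Eif4a1 window holds 1, at 189 bases before the start. For Eif4e another start is listed as well, and the window before that one (chr3:138525941-138526190) holds 0 E-boxes. Over both strands, and over all starts listed for a gene, the E-box was found for 7 of the 32 Eif genes in the promoter table (21.9%), against 6.86% of all 27025 genes there. The 7 were Eif1b, Eif3f, Eif3k, Eif4a1, Eif4e, Eif4h and Eif5a. The core of the interferon-stimulated response element (GAAA, a gap of any 2 bases, GAAA) was found in Eif3a alone, against 3.46% of all genes. TGATGNAA, the core of the amino acid response element, was found in 0 of the 32, against 3.91% of all genes. A match to these letters describes the sequence and does not show that a factor binds.

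The first comparison asked how the factors responded to stimulation, in limma, with the change common to both genotypes set against the difference between their responses. A gene was called when its Benjamini-Hochberg adjusted p over 15062 tested probe sets was under 0.05 and its change was at least 2-fold. Such p-values measure no spread between animals. Most Eif genes had small positive values, and 1 was called. At 8 h against 0 h, 1 of 40 was called higher, where 1.18% of the 8457 tested genes were, and 0 were called lower, where 1.24% of genes were. At 4 h, 0 of 40 were called in limma in either direction, beside 0.804% of genes higher and 0.615% lower. An unadjusted limma p under 0.05 was found for 6 of the 40 (15%), beside 13.6% of all tested probe sets. At 24 h, 0 of 40 were called in limma, beside 1.49% of genes higher and 2.47% lower. Here 8 of the 40 (20%) had an unadjusted limma p under 0.05, beside 21.3% of all tested probe sets. From 8 to 24 h limma called 0 of the 15062 probe sets, 1331 of them at an unadjusted p under 0.05.

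The values of the Eif genes leaned upward while those of the array as a whole did not. Their median log2 change from 0 h was 0.08 at 4 h, 0.26 at 8 h and 0.32 at 24 h, beside -0.10, -0.11 and -0.07 over all 8457 tested genes. Positive values were found for 24, 27 and 32 of the 40 at these times. Scaling moved that split: 33, 33 and 37 were positive after median scaling (each array's median brought to a common value), and 20, 25 and 29 after quantile normalization. The median of all tested probe sets itself moved under these scalings (at 24 h, -0.07 as deposited and 0.15 after median scaling). Taken relative to that median, the Eif genes stood at 0.17, 0.36 and 0.39 at 4, 8 and 24 h as deposited, at 0.21, 0.41 and 0.47 after median scaling, and at 0.03, 0.13 and 0.23 after quantile normalization.

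**Figure D1:**
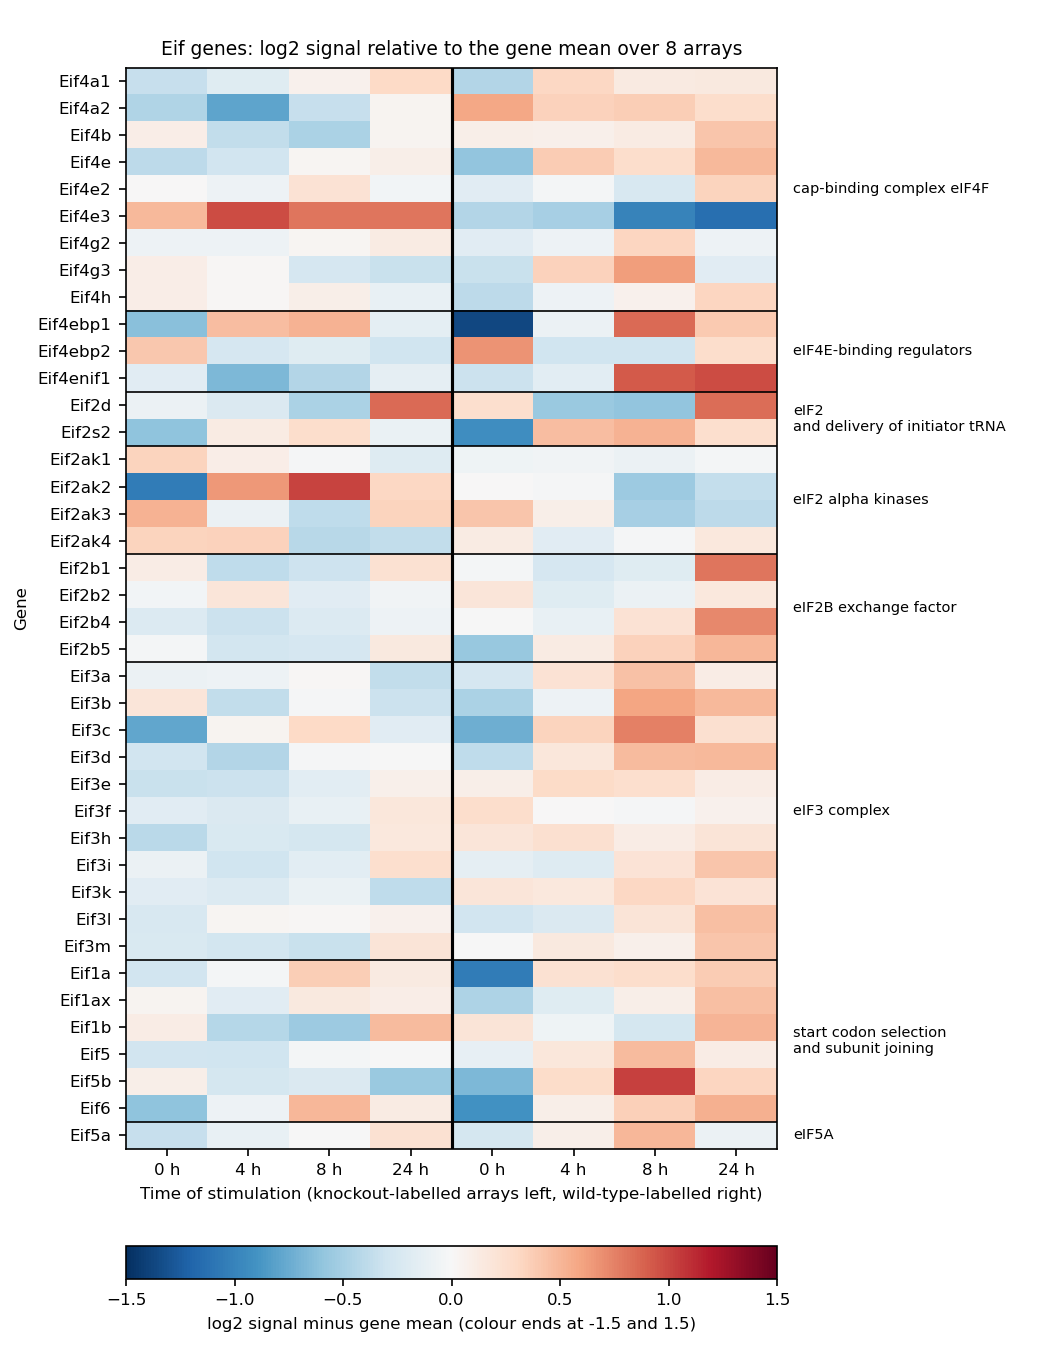
Log2 signal of each of the 40 Eif genes minus its own mean over the 8 arrays, in rows grouped by role, with the 4 knockout-labelled arrays left and the 4 wild-type-labelled arrays right, each from 0 to 24 h. Among the eIF3 genes the colours are bluer on the knockout-labelled arrays from 4 h on, with 10, 11 and 10 of 11 lower there at 4, 8 and 24 h, and Eif4e3 is red on all 4 knockout-labelled arrays.

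Within eIF3, the scaffold of 11 measured genes that carries the small subunit, Eif3c was the gene called. Eif3c encodes one of its core subunits. Its signal was 10658, 18854, 22429.9 and 16234 on the knockout-labelled arrays at 0, 4, 8 and 24 h, against 11017, 23134, 30934 and 21631 on the wild-type-labelled arrays. In both genotypes the signal was lowest at 0 h and highest at 8 h. Eif3c rose at 8 h by a log2 value of 1.28 (SE 0.22, limma adjusted p = 0.0447), which was 2.10-fold on the knockout-labelled arrays and 2.81-fold on the wild-type-labelled arrays. The values at 4 h (0.95, limma adjusted p = 0.137) and 24 h (0.79, limma adjusted p = 0.111) did not pass. A second probe set of Eif3c passed at 8 h as well, with 1.43 (limma adjusted p = 0.0262), and its other probe sets had 1.18 and 0.79 and did not. Both probe sets that passed carry the array maker's mark for probes that may also bind other transcripts. The call is a narrow one: it was lost with another floor, with no filter, with no variance trend, without genotype in the model, with the median over probe sets, and without any 1 of the 0, 4 or 8 h arrays, at limma adjusted p = 0.0545 to 0.409.

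The other eIF3 genes stayed closer to their 0 h values. Over the 11 genes the median log2 change at 8 h was 0.17, from -0.11 to the 1.28 of Eif3c, and at 24 h it was 0.29, from -0.09 to 0.79. Eif3b, a core subunit with an RNA recognition motif, was chosen after its values were seen because its genotypes went apart. It gave 4408, 3004, 3841 and 3088 on the knockout-labelled arrays, against 2777, 3668, 5849 and 5423 on the wild-type-labelled arrays. It was thus higher in the knockout-labelled cells at 0 h and lower from 4 h on, with a difference of -0.81 on the log2 scale at 24 h.

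In eIF2 and the delivery of initiator tRNA, Eif2s2 and Eif2d were measured. Eif2s2, the beta subunit of eIF2, was described after its values were seen. It gave 11960.2, 19803, 21811 and 16870.1 on the knockout-labelled arrays, against 9541, 25100.3, 25945 and 21629 on the wild-type-labelled arrays. Every stimulated array exceeded both 0 h arrays, yet the change at 8 h of 1.16 on the log2 scale (SE 0.25) did not pass (limma adjusted p = 0.0788). The other 5 probe sets of Eif2s2 had 0.80 to 1.34 at that time. Eif2d, which can deliver tRNA to the ribosome without GTP and was also chosen after its values were seen, gave 1410.1, 1294, 1083 and 2702 on the knockout-labelled arrays, against 1788, 1019, 995 and 2693 on the wild-type-labelled arrays. Both genotypes were lowest at 8 h and highest at 24 h, a step of 1.38 on the log2 scale that did not pass (limma adjusted p = 0.302). Another probe set of Eif2d was also highest at 24 h in both, with a step of 1.125, but lowest at 4 h on the wild-type-labelled arrays. A further one was highest at 0 h in both genotypes, with a step of 0.50.

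In eIF2B, the exchange factor that recharges eIF2 with GTP, 4 subunits were measured and none was called. Their median log2 change was -0.04 at 8 h and 0.45 at 24 h. Eif2b5, the catalytic epsilon subunit, was described after its values were seen and had the largest change from 0 h, 0.63 at 24 h (SE 0.33, limma adjusted p = 0.325). Its signal was 1411, 1191, 1208 and 1604 on the knockout-labelled arrays, against 977, 1575, 1840.5 and 2046 on the wild-type-labelled arrays. The wild-type-labelled series was lowest at 0 h and highest at 24 h, while the knockout-labelled series stayed within a narrow range. Eif2b1, the alpha subunit, had the largest step between 8 and 24 h, 0.76 (limma adjusted p = 0.518), with 2035, 1445, 1519 and 2202 on the knockout-labelled arrays, against 1836, 1577, 1661 and 3278 on the wild-type-labelled arrays.

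Among the factors of start codon selection and subunit joining, Eif6 came nearest to a call. Eif6, which keeps the large subunit from joining too early, was described after its values were seen. It gave 3824, 5508, 8191 and 6362 on the knockout-labelled arrays, against 3100.3, 6164, 7459 and 8421 on the wild-type-labelled arrays. All 6 stimulated arrays lay above both 0 h arrays, with 1.18 at 8 h (SE 0.24, limma adjusted p = 0.067) and 1.09 at 24 h (limma adjusted p = 0.0624). After median scaling, the 24 h value was 1.38 and passed (limma adjusted p = 0.0456). Eif1a, a form of the scanning factor eIF1A chosen after its values were seen, had 0.98 at 8 h (limma adjusted p = 0.143), and Eif1b, a form of eIF1, had -0.55 (limma adjusted p = 0.218).

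The cap-binding group held 9 genes, none called, with log2 changes at 8 h from -0.27 to 0.64. The top value was that of Eif4e, the cap-binding protein itself, which was described after its values were seen. The window before 1 of its listed starts holds the 2 E-boxes shown above. The signal of Eif4e was 5268, 5675, 7076 and 7371 on the knockout-labelled arrays, against 4589, 9033, 8271 and 9716 on the wild-type-labelled arrays. Eif4e was thus almost level between 0 and 4 h in the knockout-labelled cells and about as high at 4 h as later in the wild-type-labelled cells, and its change at 24 h was 0.78 (SE 0.26, limma adjusted p = 0.148). Eif4a1, the helicase of the complex, had 0.49 at 8 h (limma adjusted p = 0.332). The 7 Eif genes with an E-box had log2 changes at 8 h from -0.55 (Eif1b) to 0.64 (Eif4e), and none was called. Myc gave 4320.1, 7348, 7019.7 and 2962 on the knockout-labelled arrays, against 3225, 16418, 13945 and 7789 on the wild-type-labelled arrays, and did not pass at any time (limma adjusted p = 0.144 at 8 h). Its part in the values of the Eif genes was not tested.

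Among the regulators that bind eIF4E, Eif4ebp1, the repressor that mTORC1 inactivates, had the largest change of any Eif gene at 8 h and still did not pass. It was described after its values were seen. Its signal was 3203, 6826, 7117 and 4464 on the knockout-labelled arrays, against 1922, 4646, 8922 and 6507 on the wild-type-labelled arrays. The genotypes peaked together at 8 h, by 2.22-fold over 0 h on the knockout-labelled arrays and 4.64-fold on the wild-type-labelled arrays, and the common log2 change was 1.68 (SE 0.35, limma adjusted p = 0.0699). Eif4ebp2, a second repressor of the same kind, had -0.78 at 8 h (limma adjusted p = 0.163), from -0.59 on the knockout-labelled and -0.96 on the wild-type-labelled arrays. Another probe set above the floor on all arrays had -1.40, from -2.14 and -0.67 in that order. A further one, under the floor on the knockout-labelled 8 h array, had -2.44 and -0.23. Which genotype fell further thus depended on the probe set.

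Eif5a, the hypusine-bearing factor that helps ribosomes past difficult peptide bonds, gave 23449.8, 27512, 29593 and 34775 on the knockout-labelled arrays, against 24855, 31466, 41884 and 27977 on the wild-type-labelled arrays. Its highest array was at 24 h in the knockout-labelled series and at 8 h in the wild-type-labelled series. Its change at 8 h was 0.54 (SE 0.27, limma adjusted p = 0.318). A second probe set was instead highest at 8 h in both series, with a change at 8 h of 1.05 (limma adjusted p = 0.0994). The difference in peak time thus rests on 1 probe set.

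**Figure D2:**
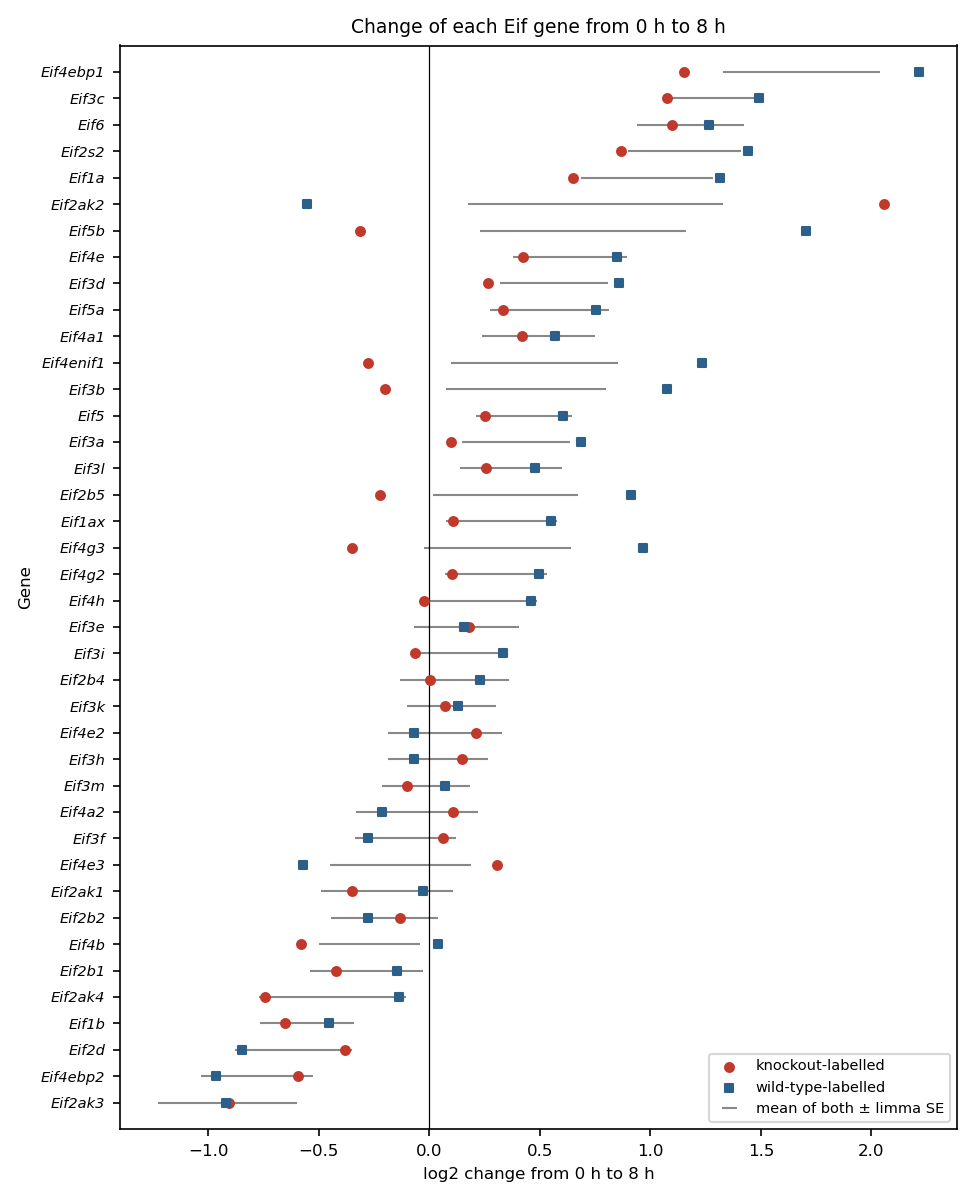
Log2 change from 0 h to 8 h of each Eif gene on the knockout-labelled arrays (circles) and the wild-type-labelled arrays (squares), with the limma mean of both ± SE as a grey bar. Eif4ebp1, Eif3c, Eif6 and Eif2s2 lie highest by the mean of both, and in 29 of 40 genes the circle lies left of the square.

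The second comparison asked how the factors differed between the genotypes at each time. The Eif genes did not stand 2-fold apart throughout, but their signals leaned lower in the knockout-labelled cells once these were stimulated. At all 4 times together, 0 of 40 exceeded the wild-type-labelled cells 2-fold, where 1.84% of tested genes were, and 0 were 2-fold lower, where 0.166% of genes did so. At 0 h, 0 were 2-fold higher (7.97% of genes) and 2 were 2-fold lower (6.76% of genes). At 4 h, 1 was higher (11.7% of genes) and 1 lower (6.54% of genes). At 8 h, 2 were higher (10.7% of genes) and 2 lower (6.67% of genes). At 24 h, 1 was higher (9.15% of genes) and 1 lower (5.04% of genes). These counts of 0 to 2 in 40 are too small to set the Eif genes apart from all tested genes. All 40 were above the floor on all 8 arrays, which held for only 6363 of the 8457 tested genes.

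Below that size, a common lean was seen. The median log2 difference, knockout-labelled minus wild-type-labelled, was 0.10 at 0 h, -0.24 at 4 h, -0.31 at 8 h and -0.35 at 24 h, beside 0, 0, -0.08 and 0 over all tested genes. Over the genes above the floor on all arrays, as all 40 Eif genes were, it was -0.04, -0.07, -0.14 and -0.06. Lower values in the knockout-labelled cells were found for 15, 28, 29 and 32 of the 40 at 0, 4, 8 and 24 h, beside 48.4%, 49.2%, 54.4% and 45.6% of tested genes. A tested gene at the floor in both genotypes has a difference of 0 and is not counted as lower. At all of 4, 8 and 24 h, 21 of 40 were lower (52.5%), beside 23.0% of tested genes and 28.4% of the 6363 genes that were above the floor on all arrays. The split moved with scaling, to 32, 31 and 36 lower at 4, 8 and 24 h after median scaling, and to 26, 27 and 35 after quantile normalization. Relative to the median of all tested probe sets, the Eif genes stood at -0.22, -0.24 and -0.35 as deposited, at -0.23, -0.23 and -0.43 after median scaling, and at -0.09, -0.16 and -0.26 after quantile normalization.

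**Figure D3:**
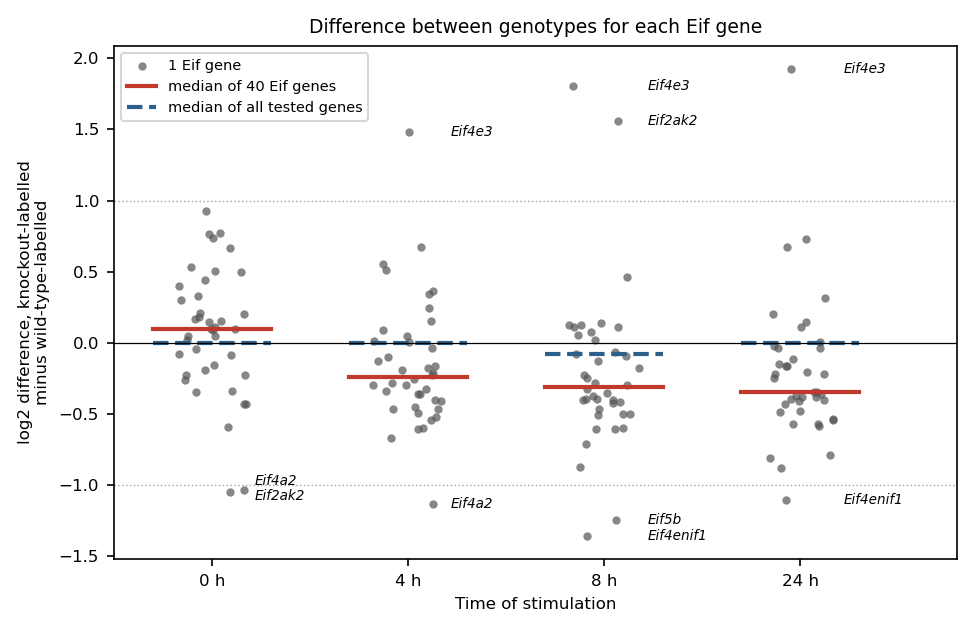
Log2 difference, knockout-labelled minus wild-type-labelled, of each of the 40 Eif genes at 0, 4, 8 and 24 h (points, spread sideways for sight), with the median of the Eif genes as a solid line and that of all tested genes as a broken line. Dotted lines mark 2-fold, and the genes beyond them are named. The solid line is at 0.10 at 0 h and at -0.24, -0.31 and -0.35 later.

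In eIF3, 6, 10, 11 and 10 of the 11 genes were lower in the knockout-labelled cells at 0, 4, 8 and 24 h. From 4 h on, these counts were 10, 11 and 11 after median scaling, and 9, 11 and 11 after quantile normalization. The size was small, with median differences of -0.30, -0.40 and -0.38 from 4 h to 24 h, and no eIF3 gene was 2-fold apart at any time. Eif3k, a peripheral subunit, was lower at all 4 times, by -0.35, -0.36, -0.41 and -0.59. Eif3e and Eif3h, also lower from 0 h, came to -0.03 and -0.04 at 24 h. All 4 eIF2B genes were lower at 8 and at 24 h, with median differences of -0.28 and -0.46. The 4 eIF2 kinases were split, with 1, 1, 1 and 2 of them lower from 0 to 24 h.

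The change from 0 h was also lower (less positive or more negative) in the knockout-labelled cells for most Eif genes. This held for 31, 29 and 25 of 40 at 4, 8 and 24 h, beside 45.3%, 51.8% and 46.4% of all tested genes. The median change was -0.04, 0.08 and 0.28 on the knockout-labelled arrays, against 0.14, 0.40 and 0.46 on the wild-type-labelled arrays. Over all tested genes it was -0.06, -0.11 and -0.03 on the knockout-labelled arrays, against -0.10, -0.06 and -0.06 on the wild-type-labelled arrays. At least 1.5-fold above 0 h were 4, 6 and 5 genes in the knockout-labelled cells, against 10, 15 and 18 in the wild-type-labelled cells. The shares over all tested genes were 11.0%, 12.3% and 17.8% in the knockout-labelled cells, against 13.0%, 16.9% and 16.2% in the wild-type-labelled cells. These values share the 0 h arrays, at which the knockout-labelled cells had the higher signal in 25 of the 40. At that time mitosis markers were also higher there, all 9 listed ones on the array being tested and none at the floor throughout. Their sum on the knockout-labelled arrays was 35401, 35046, 24388 and 6008, against 15474, 6134, 5793 and 12288 on the wild-type-labelled arrays. Their part in the values of the Eif genes was not tested, nor was that of the T cell, granulocyte and monocyte markers given above, whose median differences at 8 h were -1.53, 3.98 and 3.85.

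Eif4e3 was higher in the knockout-labelled cells at all 4 times. It encodes a member of the eIF4E family that binds the cap in its own manner. Its signal was 1711, 2404, 2119 and 2119.8 on the knockout-labelled arrays, against 900.4, 863, 607 and 558 on the wild-type-labelled arrays. The groups did not overlap, the lowest knockout-labelled array lying above the highest wild-type-labelled one. Groups without overlap were also seen, in the other direction, for Eif4a2, Eif3e and Eif3k. The share of all tested genes without overlap is not given here. The difference was 1.90-fold at 0 h, 2.79-fold at 4 h, 3.49-fold at 8 h and 3.80-fold at 24 h. A second probe set gave log2 differences of 1.61, 1.18, 0.80 and 1.69 at these times. Beside it, granulocyte precursor markers had median log2 differences of 3.66, 4.28, 3.98 and 1.73 and monocyte markers ones of 1.64 (0 h) to 3.85 (8 h), and the part of such cells in the Eif4e3 signal was not tested.

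Eif4a2, the close relative of the Eif4a1 helicase, was lower in the knockout-labelled cells early on. It gave 7854, 6241, 8453 and 11065 on the knockout-labelled arrays, against 16119.9, 13696, 13886 and 12895 on the wild-type-labelled arrays. The groups did not overlap here either, with log2 differences of -1.04 at 0 h, -1.13 at 4 h, -0.72 at 8 h and -0.22 at 24 h. T cell identity markers had median log2 differences of -1.68, -1.64, -1.53 and -0.24 at the same times, with 10, 11, 10 and 1 of the 12 lower by 2-fold or more. Their part in the Eif4a2 signal was not tested. Eif4a1 differed by 0.09, -0.49, -0.06 and 0.15.

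**Figure D4:**
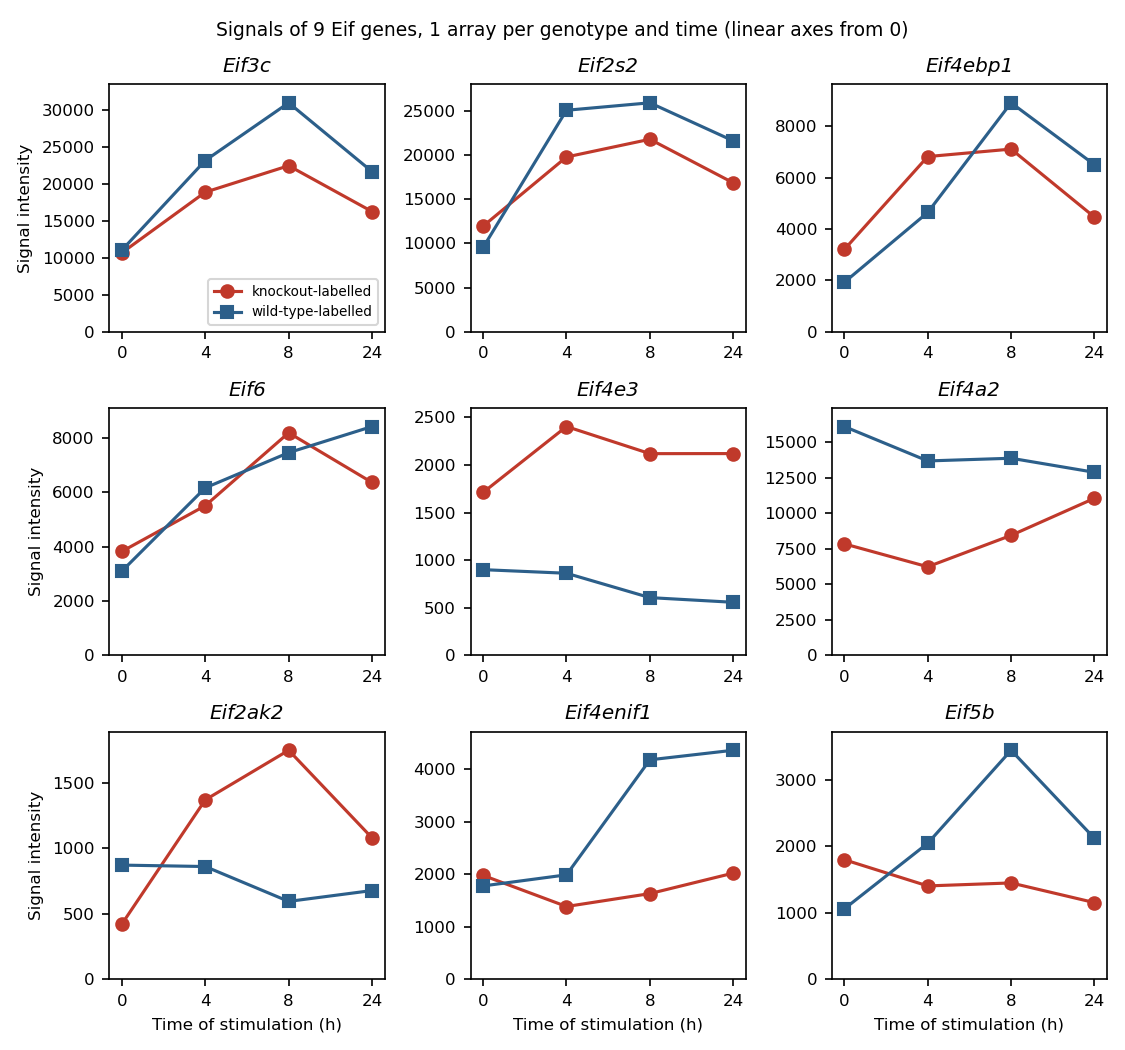
Signal intensity at 0, 4, 8 and 24 h (times evenly spaced) on the knockout-labelled arrays (circles) and the wild-type-labelled arrays (squares) for 9 Eif genes, 1 array per point, on linear axes from 0. Both lines are higher at 8 h than at 0 h for Eif3c, Eif2s2, Eif4ebp1 and Eif6, and they do not overlap for Eif4e3 and Eif4a2. The lines cross for Eif2s2, Eif4ebp1, Eif6, Eif2ak2, Eif4enif1 and Eif5b.

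Eif4enif1, also known as 4E-T, carries eIF4E into the nucleus and represses bound mRNAs. Its signal was 1979, 1385, 1631 and 2022 on the knockout-labelled arrays, against 1778, 1989, 4184 and 4367 on the wild-type-labelled arrays. Only the wild-type-labelled arrays at 8 and 24 h stood apart from the other arrays. The log2 difference was 0.15 and -0.52 at 0 and 4 h, and -1.36 and -1.11 at 8 and 24 h.

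The third comparison asked where the response from 0 h itself differed at least 4-fold between the genotypes, by size, with no test since 1 array per genotype and time leaves no residual for it. This held for 0 of 40 Eif genes at 4 h (1.12% of tested genes), 2 at 8 h (2.44% of genes) and 0 at 24 h (6.15% of genes). The 2 genes went opposite ways.

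Eif2ak2 encodes PKR, the eIF2 kinase that double-stranded RNA activates and interferon induces. It gave 421, 1372, 1752 and 1081 on the knockout-labelled arrays, against 873, 862, 595 and 678 on the wild-type-labelled arrays. The knockout-labelled series thus held both the lowest array, at 0 h, and the 3 highest. Its change from 0 to 8 h was 2.06 on the log2 scale in the knockout-labelled cells, against -0.55 in the wild-type-labelled cells, a difference in response of 2.61. A second probe set had log2 differences between genotypes of -0.39, 0.54, 1.70 and 0.99 at 0, 4, 8 and 24 h. Other interferon response genes, a list chosen after values were seen, had median log2 differences of -1.05, 0.08, 1.00 and 1.27 over 22 tested genes. In the knockout-labelled cells 0, 3, 11 and 17 of these genes exceeded the wild-type-labelled level 2-fold, and 12, 0, 0 and 0 lay 2-fold under it. The other kinases had no 2-fold difference at any time: Eif2ak3, or PERK, which senses misfolded protein, reached 0.73 at 24 h, Eif2ak4, or GCN2, which senses uncharged tRNA, ranged from -0.54 to 0.51, and Eif2ak1, which senses haem, ranged from -0.17 to 0.40.

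Eif5b, the GTPase that joins the ribosomal subunits, went the opposite way. It gave 1798, 1403, 1448 and 1152 on the knockout-labelled arrays, against 1057, 2045, 3446 and 2119 on the wild-type-labelled arrays. The knockout-labelled series was highest at 0 h and the wild-type-labelled series lowest there. From 0 to 8 h the log2 change was -0.31 in the knockout-labelled cells, against 1.70 in the wild-type-labelled cells, a difference in response of -2.02. A second probe set above the floor on all arrays had log2 differences between genotypes of 0.70, -0.51, -0.66 and -0.56.

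Probe sets that were not chosen to represent a gene mostly pointed the same way. Of 42 further probe sets above the floor on all arrays, from 23 of the genes, 37 had the sign of their gene's change at 8 h. The sign of the genotype difference was shared by 28, 32, 30 and 35 of them at 0, 4, 8 and 24 h.

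Around the Eif genes, the rest of the translation apparatus was set beside them by lists. Of 19 tested partners not named Eif and 15 tested elongation and termination factors, limma called 0 at any time in either direction. Their median log2 changes at 8 h were 0.08 and -0.01, and their median differences between genotypes at 8 h were -0.40 and -0.36. Aminoacyl-tRNA synthetases, which charge tRNAs, had larger changes: of 18 tested, 1, 3 and 0 were called higher at 4, 8 and 24 h and 0 lower, with medians of 1.09, 1.27 and 0.71. Wars, the tryptophan enzyme, rose by a log2 value of 2.10 at 8 h (SE 0.31, limma adjusted p = 0.0288). Cars, the cysteine enzyme, rose by 2.02 at 4 h (SE 0.29, limma adjusted p = 0.034), and Sars, the serine enzyme, rose by 1.27 at 8 h (SE 0.21, limma adjusted p = 0.0386). The median difference of this list between genotypes was 0.38 at 0 h and -0.27, -0.47 and -0.86 at 4, 8 and 24 h.

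Of 21 tested genes that signal to initiation, 2, 3 and 1 were called higher at 4, 8 and 24 h and 0 lower. They were Atf4, Trib3 and Sesn2. Atf4 encodes the transcription factor whose mRNA is translated better when eIF2 is phosphorylated. It gave 3506, 10219, 9648 and 10215 on the knockout-labelled arrays, against 4467, 13886, 14854 and 11293 on the wild-type-labelled arrays. All stimulated arrays were above both 0 h arrays, with changes of 1.59, 1.60 and 1.44 on the log2 scale at 4, 8 and 24 h (SE 0.21 each, limma adjusted p = 0.0264, 0.0225 and 0.0234). Trib3, a pseudokinase that ATF4 induces, rose by 3.03 at 8 h (SE 0.42, limma adjusted p = 0.0241), its knockout-labelled 0 h signal being under the floor, and Sesn2, an inhibitor of mTORC1, rose by 2.27 (SE 0.33, limma adjusted p = 0.0263). Median changes of this list were -0.06, -0.12 and 0.02 at 4, 8 and 24 h.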

How the data were processed

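Per the labels, 8 Affymetrix MOE430A_2.0 arrays held RNA of enriched T cells, 1 for each of 8 groups. RNA was extracted with TRIzol and made into biotin-labelled cRNA, per the labels' protocols. The deposited values are signal intensity on a linear scale, and the submitters' processing notes name GCOS 1.4 and MAS5 without saying what each did. Gene symbols came from the platform annotation, with 20380 probe sets listing 1 symbol, 691 several and 1555 none. There were 0 unused columns.

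Signals were used as deposited. The 40th percentile was taken on each array, values under the median of these percentiles (141.88) were raised to it, and log2 was taken. Probe sets above it on at least 2 arrays were tested, 15062 in all, and 8457 genes had 1 probe set each. Per array, 56.5% to 61.5% of probe sets were above the floor. Stimulation was fitted in limma 3.58.1 (R 4.3.3) with time and genotype, with eBayes and a variance trend. The fit had 3 residual and 3.88 prior degrees of freedom, and 8 arrays limit the precision. Genotypes were compared by size, since the labels give no replicates. Eif genes received all 8 signals when called, at least 2-fold apart between genotypes in 1 direction at 2 or more times, or at least 4-fold apart in response. In role groups with none, the gene with the largest change received them, and other genes described so are said to be chosen after their values were seen. From the other lists, up to 3 called genes were named. Members and lists were chosen with earlier results of these data known.

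Promoters came from RefSeq (GRCm38.p6), in which 32 of the 40 genes matched. The steps were tested on simulated data. Alternatives were quantile normalization, median scaling (division of each array by its median), other floors and thresholds, leaving out the filter, adding the floor to the signal before log2, the median over probe sets, limma for genotype, no replicate block (no genotype term), no variance trend and leaving out arrays. Leaving out probe sets with _x_ or _s_ in their names and taking differences relative to the median of all probe sets were chosen after seeing the data. Scripts used python 3.11.15, numpy 2.4.6, pandas 2.3.3 and matplotlib 3.10.9.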

Additional observations from a re-analysis of the deposited data

Results flagged for a closer look

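Eif5b, the GTPase of subunit joining, had changes of opposite sign in the 2 genotypes, of at least 1.5-fold each. From 0 to 24 h its log2 change was -0.64 in the knockout-labelled cells and 1.00 in the wild-type-labelled cells. The difference was not tested, since each value rests on 1 array per genotype and time. At 8 h its values were -0.31 in the knockout-labelled cells and 1.70 in the wild-type-labelled cells.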

How the results depend on the processing

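No median or called value reversed, and a count could by its nature only stay or move. Among counts and medians, 43 moved. Among changes of single genes, 31 took the other sign, none of them called. Median scaling gave log2 changes of 0.008 for Eif4enif1 at 4 h, 0.13 for Eif4e3 and 0.20 for Eif4a2 at 8 h, and 0.11 for Eif4e3 at 24 h, all against 0 h. Quantile normalization gave 0.0064 for Eif4e3 at 8 h and -0.058 for Eif4a2 at 24 h. Leaving out 1 array gave the other 25. At 4 h the values then ran from -0.19 to 0.62 for Eif4e3, -0.75 to 0.40 for Eif4enif1, -0.53 to 1.13 for Eif5b and -0.17 to 1.85 for Eif2ak2. At 8 h they ran from -0.54 to 0.27 for Eif4e3, -0.23 to 0.12 for Eif4a2, -0.10 to 1.05 for Eif4enif1, -0.13 to 1.52 for Eif5b and -0.26 to 1.76 for Eif2ak2. At 24 h they ran from -0.60 to 0.21 for Eif4e3, -0.28 to 0.46 for Eif4a2, -0.65 to 1.01 for Eif5b and -0.51 to 1.51 for Eif2ak2. From 8 to 24 h they ran from -0.34 to 0.15 for Eif6, -0.32 to 0.20 for Eif4e3, -0.23 to 0.51 for Eif4a2, -0.25 to 0.62 for Eif4enif1 and -0.98 to 0.48 for Eif2ak2. The 1 gene called higher at 8 h became 0 with the floor at the 20th or 60th percentile, no filter, the median over probe sets, no replicate block (time alone) and no variance trend, and 0 to 4 when 1 array was left out. The 4 were Eif3c, Eif2s2, Eif4ebp1 and Eif6, without either 24 h array. At 24 h, 1 gene (Eif6) was called after median scaling, against 0. Genes 2-fold lower in the knockout-labelled cells at 24 h were 0 after quantile normalization and 4 after median scaling, against 1. At 0 h, 1 was lower, against 2, with the floor at the 60th percentile, with log2 of the signal plus the floor, and with the median over probe sets. The response at 8 h was 4-fold apart in 1 gene, against 2, with log2 of the signal plus the floor and with the median over probe sets. That median also gave 1 higher at all times, 1 higher at 0 h and 1 lower at 8 h. At 1.5-fold, 1 was higher at all times, 5 were higher at 0 h, 2 higher and 4 lower at 4 h, 7 lower at 8 h, and 3 higher and 5 lower at 24 h. At 3-fold, 0 were lower at 0 h, 0 were higher or lower at 4 h, 1 was higher and 0 were lower at 8 h, and 0 were lower at 24 h. Responses 2-fold apart were found for 3, 7 and 7 genes at 4, 8 and 24 h. The limma term for genotype called 1 higher (Eif4e3). That fit takes the 4 times of 1 source number per genotype as replicates, so it is no replicate check. The share of all genes it called is not given here. Leaving out the pair of 1 time gave 0 to 1 higher at all remaining times. The causes of these shifts were not tested. The other 292 counts and medians kept within 1.5 times the value given or within its spread. Among values of single genes, 634 kept direction and side of the threshold, 7 passed it newly and 12 no longer passed. With 1 array per genotype and time, the number of arrays limits what can be seen, and differences under 2-fold between genotypes have no replicate check.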
